A study of Mus musculus with 4 samples.

Results

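The E2F transcription factors and the pocket proteins that bind them were followed in C3H10T1/2, a line of mouse mesenchymal stem cells, with and without BMP3, a secreted ligand of the TGF-beta superfamily. The genes were E2f1 to E2f8, Rb1 and Rbl1, 10 of the 18193 genes with a probe set of their own, and all 22 of their probe sets among the 45037 tested are described. They were chosen by the measured values, because E2f8 was higher in the BMP3 arrays, so their BMP3 against control values are a description and carry no test. Control cells were left untreated, and BMP3 cells received the recombinant human protein at 100 ng/ml over 6 hours. Total RNA of 2 control and 2 BMP3 cultures, labelled as biological replicates, was hybridised to 4 Affymetrix arrays. All cultures were of 1 cell line, the labels give no further detail of growth, and the number of arrays limits the precision.

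E2F proteins bind DNA at genes needed to enter and complete S phase. E2F1, E2F2 and E2F3 are the activators of the family, while E2F4 and E2F5 act mainly as repressors together with pocket proteins, and E2F6 represses with polycomb proteins and without a pocket protein. E2F7 and E2F8 are the atypical members, which bind DNA without a DP partner and repress E2F target genes late in S phase and in G2. The pocket proteins pRb (Rb1), p107 (Rbl1) and p130 (Rbl2) hold E2F proteins inactive until cyclin-dependent kinases phosphorylate them. Several of these genes are known to be targets of E2F themselves.

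The promoter sequences are shown because E2F control of the E2F genes would act through them. RefSeq promoter windows on GRCm38.p6, from 250 bases before to 50 after a transcript start, matched 7 of the 10 genes in 9 windows. E2f4, E2f5 and Rb1 were not among them. The E2F word was searched on both strands as TTTCCCGC, TTTGGCGC, TTTCGCGC or TTTGCCGC, and in a shorter form made of the same 4 words without their first T, so each long match is also a short one. The long form was in windows of 4 of the 7 genes (E2f2, E2f3, E2f7 and Rbl1) and in 2.26% of all 32851 windows. The short form was in windows of 5 genes, E2f8 being the fifth, and in 9.57% of all windows. The sites below have the word in capitals and run 5′ to 3′ on the strand of the gene, where a word on the other strand reads as its reverse complement.
E2f2, chr4:136172302-136172323 (plus strand): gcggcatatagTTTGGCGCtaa
E2f3, chr13:29986056-29986085 (minus strand): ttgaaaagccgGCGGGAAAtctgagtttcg
Rbl1, chr2:157204534-157204563 (minus strand): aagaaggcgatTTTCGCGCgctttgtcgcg
E2f8, chr7:48881690-48881718 (minus strand): agaggcgcggaTTGGCGCgcggggccccg
The E2f2 word began 39 bases after the start, and the E2f3, Rbl1 and E2f8 words began 11, 18 and 111 bases before it.

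E2f7 held 3 short matches, 1 of which was also a long one, all upstream of the start. Its 250 upstream bases, chr10:110745189-110745438 on the plus strand, are given whole because the 2 atypical genes had the highest differences of the family. Capitals mark the matches.
E2f7 upstream: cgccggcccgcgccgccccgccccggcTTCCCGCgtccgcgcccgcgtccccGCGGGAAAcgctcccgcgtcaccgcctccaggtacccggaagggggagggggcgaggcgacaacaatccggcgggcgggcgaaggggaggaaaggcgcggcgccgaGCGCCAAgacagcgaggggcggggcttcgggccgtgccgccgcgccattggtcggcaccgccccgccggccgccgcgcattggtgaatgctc
A second word, TTTGAA, is the core of the cell cycle homology region (CHR), through which the MuvB complex acts on late cell cycle genes. It was searched on both strands and lay in windows of 3 of the 7 genes (E2f2, E2f3 and E2f8), and in 17.9% of all windows. The E2f2 match was in its second window, inside the gene, and the window with the E2F word above had none. In E2f8 it began 20 bases before the start, as the reverse complement.
E2f8, chr7:48881599-48881628 (minus strand): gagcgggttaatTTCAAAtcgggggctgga
The transcript starts of the E2f1 and E2f8 windows lie 466 and 477 bases inside the gene as RefSeq bounds it, and those of the second windows of E2f2 and E2f3 lie 8508 and 1673 bases inside. Other starts of these genes have other promoters. The words are matches of letters, and binding was not measured.

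The 2 atypical genes had the highest values in BMP3 arrays relative to control. Replicates 1 and 2 of the control had E2f8 at 5.12 and 5.14, whereas those of BMP3 had it at 6.55 and 6.47 (log2 values, probe set 1436186_at). Both BMP3 arrays lay above both control arrays, and each pair of replicates was close together. The difference, BMP3 minus control on the log2 scale as all differences here, was 1.38 with a standard error (SE) of 0.05 in limma's fit over all probe sets, or 2.60-fold. The mean over the 4 arrays was 5.82, under the log2 value of 6 below which a probe set is called dim here. The second E2f8 probe set, 1444319_at, stayed between 1.93 and 2.01 on the 4 arrays, below the array medians of 3.31 to 3.40.

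E2f7, represented by 1 probe set (1437187_at), was at 3.99 and 4.72 on the control arrays against 5.18 and 5.51 with BMP3. The groups did not overlap, but the control arrays were 0.72 apart. The difference was 0.99 (SE 0.32), or 1.99-fold, and ran from 0.63 without control replicate 1 to 1.36 without control replicate 2. E2f7 was dim on every array but above the array medians. By the same omissions E2f8 kept to between 1.34 and 1.42.

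**Figure D1:**
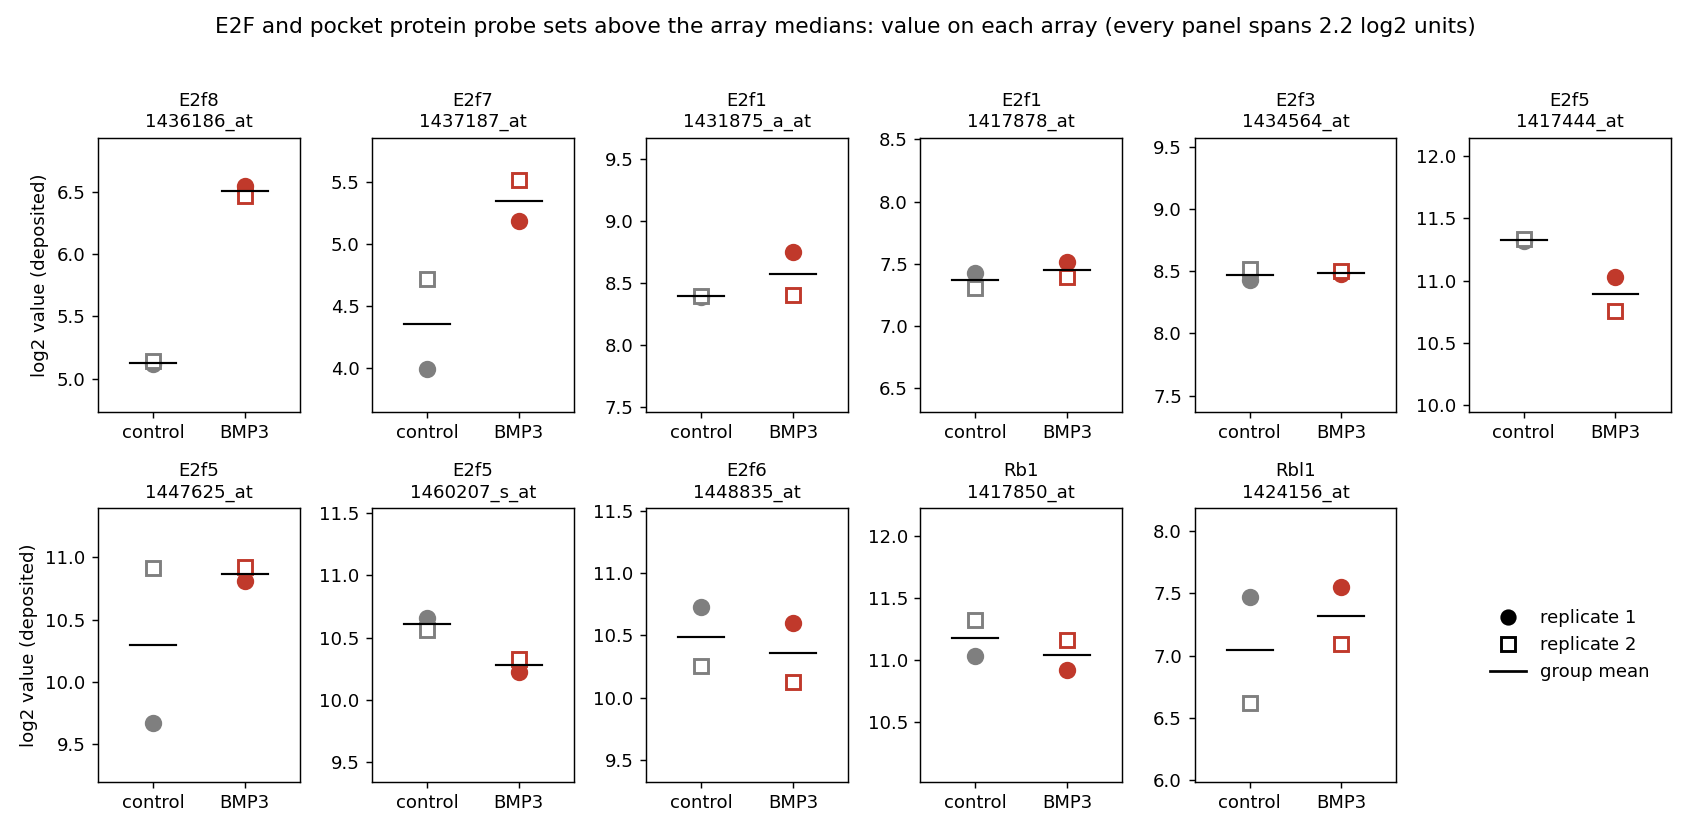
Deposited log2 value of each array for the 11 member probe sets whose group means lay above the array medians, with filled circles for replicate 1, open squares for replicate 2, grey for control, red for BMP3 and a line for each group mean. Every panel spans the same log2 range around its own centre, and E2f8 shows the groups farthest apart, at 5.12 and 5.14 against 6.55 and 6.47.

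Among the activators, E2f1 had 2 probe sets above the array medians. At 1431875_a_at it was at 8.39 and 8.40 on the control arrays against 8.75 and 8.41 with BMP3, a difference of 0.18 (SE 0.14). BMP3 replicate 2 lay only 0.0082 above control replicate 2 there, and the difference was 0.01 without BMP3 replicate 1. At 1417878_at the values were 7.43 and 7.31 on the control arrays against 7.52 and 7.39 with BMP3, which overlapped (difference 0.09, SE 0.08). E2f3 differed little between any of the arrays, at 8.43 and 8.52 on the control arrays against 8.48 and 8.50 with BMP3 (1434564_at, difference 0.02, SE 0.05). It turned to -0.03 without control replicate 1. E2f2 was below the median of every array at both of its probe sets, so no difference is read for it.

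Among the repressors, 1 gene had lower values at 2 of its probe sets. E2f5 at 1417444_at, its brightest probe set, was at 11.32 and 11.34 on the control arrays against 11.03 and 10.76 with BMP3, a difference of -0.43 (SE 0.11). At 1460207_s_at it was at 10.66 and 10.56 against 10.23 and 10.33 (difference -0.33, SE 0.07), and the groups did not overlap at either probe set. The suffix of this name marks probes that can match transcripts of other genes. The third, 1447625_at, was at 9.67 in control replicate 1 and between 10.81 and 10.92 on the other arrays, so its difference of 0.57 (SE 0.50) came from 1 array. The 3 E2f5 probe sets thus disagreed in direction. E2f6 was at 10.73 and 10.26 on the control arrays against 10.60 and 10.12 with BMP3 (1448835_at). Its values split by replicate number, with replicate 2 lower by 0.47 in each group, and the difference of -0.13 (SE 0.27) was 0.11 without control replicate 1 or without BMP3 replicate 2. E2f4 was represented by 1 probe set that stayed between 1.89 and 1.92 on all 4 arrays, below their medians, and no difference is read for it.

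The groups overlapped for the pocket protein genes Rb1 and Rbl1. Rb1, which encodes pRb, was at 11.03 and 11.33 on the control arrays against 10.92 and 11.16 with BMP3 (1417850_at), a difference of -0.14 (SE 0.16). It was 0.01 without control replicate 2. Rbl1, which encodes p107, was at 7.47 and 6.62 on the control arrays against 7.55 and 7.09 with BMP3 (1424156_at). Replicate 1 was the higher of each pair, by 0.85 in control and 0.46 in BMP3 arrays. The difference of 0.27 (SE 0.38) moved to -0.15 when control replicate 2 was left out and to 0.70 when control replicate 1 was.

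**Figure D2:**
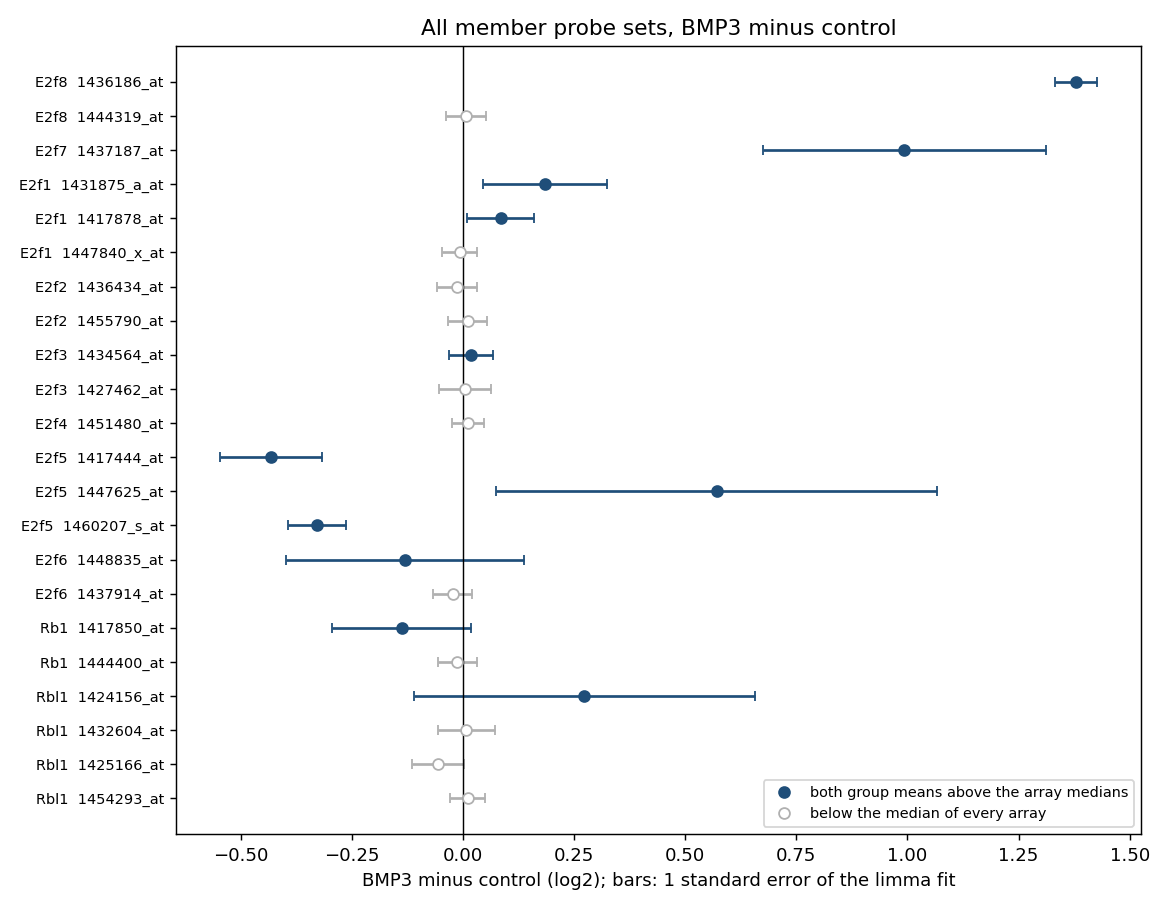
Difference between the mean BMP3 and mean control log2 value for all 22 member probe sets, with bars of 1 standard error from limma. E2f8 (1.38) and E2f7 (0.99) stand to the right, and 2 E2f5 probe sets to the left (-0.43 and -0.33). The third E2f5 probe set is to the right (0.57) with a wide bar. The 11 open symbols, below the median of every array, lie between -0.06 and 0.01.

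Of the 22 probe sets, 11 had both group means above the array medians, and these belonged to 8 genes. The other 11 were below the median of every array, with values between 1.27 and 3.14, and were all probe sets of E2f2 and E2f4 and single or several ones of E2f1, E2f3, E2f6, E2f8, Rb1 and Rbl1. A probe set at this level does not show whether its transcript was present, since the deposited table gives no detection call. Of the 22, 2 (E2f8 and E2f7) were higher by 1.5-fold or more and 0 lower, against 1.86% and 4.19% of all probe sets. Among the 11 brighter ones, 3 had BMP3 arrays wholly above control and 2 wholly below, where 20.8% and 25.3% of all probe sets at such levels did so. The brightest probe sets of the 10 genes had a median difference of 0.01, and all genes had -0.01. Across all probe sets limma called 0 at a Benjamini-Hochberg adjusted p under 0.05 (0%, smallest adjusted p = 0.213), with 1667 higher and 2112 lower at an unadjusted p under 0.05.

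**Figure D3:**
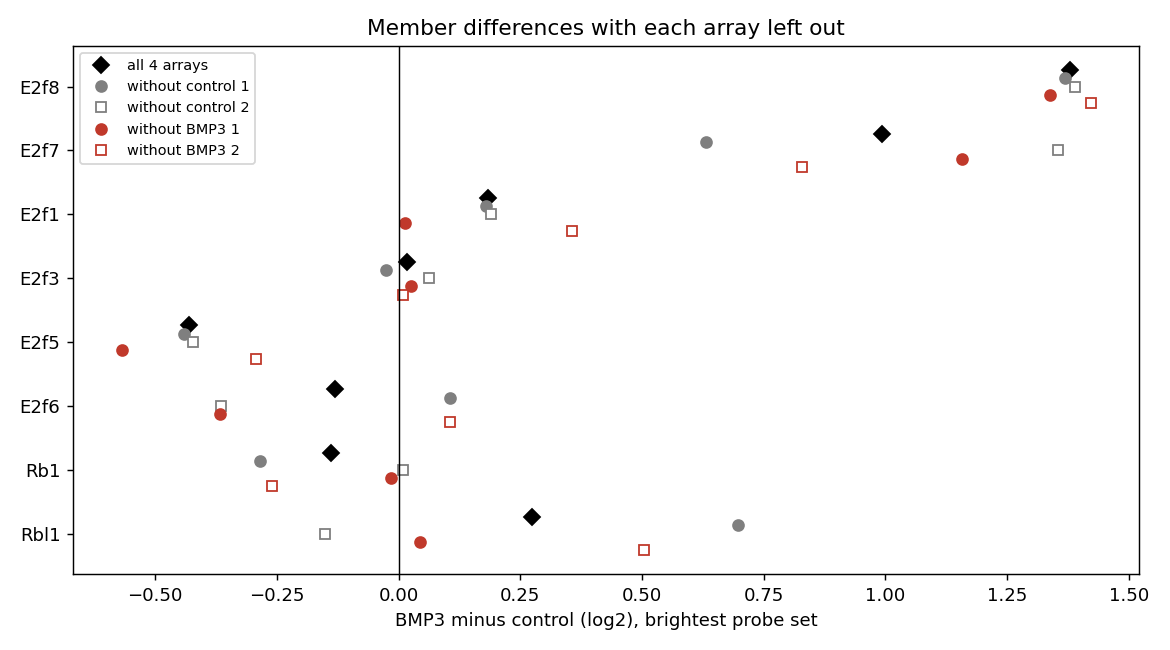
BMP3 minus control (log2) of the brightest probe set of each of the 8 genes above the array medians, with all 4 arrays (black diamonds) and with each array left out in turn. E2f8 and E2f7 stay above 0.6 and E2f5 below -0.2 throughout, while E2f3, E2f6, Rb1 and Rbl1 take either sign.

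The partners of these proteins were Tfdp1 and Tfdp2, which encode the DP subunits that E2F1 to E2F6 need to bind DNA, and Rbl2, which encodes the pocket protein p130. Rbl2 had lower values in BMP3 arrays at both of its probe sets, at 9.53 and 9.31 on the control arrays against 9.26 and 8.60 with BMP3 for the brighter one (difference -0.49, SE 0.28). The other was at 6.32 and 5.98 against 5.74 and 5.26 (difference -0.66, SE 0.24), and the groups did not overlap at either. In each group replicate 2 was the lower. Tfdp1 was at 10.96 and 11.23 on the control arrays against 11.23 and 11.51 with BMP3 (difference 0.27, SE 0.16), which overlapped. Tfdp2 overlapped as well, with a difference of -0.52 (SE 0.48) and BMP3 replicate 2 lowest at 7.07. None of the 3 passed the test, adjusted (0 of 3) or at an unadjusted p under 0.05 (0 of 3).

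Pocket proteins are phosphorylated by cyclin-dependent kinases with cyclins D and E. Of 8 measured genes for these cyclins and kinases, most of them cyclin genes, 7 were higher. Their median difference was 0.13, and 42.4% of all genes were higher. Of the 6 averaging a log2 value of 6 or more, 5 were higher, as were 4899 of all 9185 genes at that level. The median of the 8 was 0.02 when control replicate 2 was left out, 0.21 when control replicate 1 was and 0.26 when BMP3 replicate 2 was. In limma's fit 0 of the 8 passed the adjusted threshold, and 2 were higher at an unadjusted p under 0.05, where 5.28% of all genes were. Ccnd1, which encodes cyclin D1, was at 14.24 and 14.03 on the control arrays against 14.74 and 14.59 with BMP3 (difference 0.53, SE 0.11). Its other probe sets had 0.76 and 0.72. Cdk6, a kinase partner of cyclin D, was at 9.92 and 9.81 against 10.45 and 10.32 (difference 0.52, SE 0.07). Cdk4 overlapped (0.16, SE 0.13) and had -0.05 and 0.10 at its other probe sets. Ccne1, which encodes cyclin E1, was dim (0.32, SE 0.19). The inhibitors of these kinases went both ways, with 3 of 7 higher and 4 lower and 0 past the adjusted threshold. Cdkn2a was at 8.89 and 8.77 on the control arrays against 9.61 and 9.47 with BMP3 (0.72, SE 0.08). Its probe set stands for the locus of p16 and p19Arf, and the 2 products were not told apart. Cdkn1b, which encodes p27, was at 12.82 and 12.63 against 12.10 and 11.90 (-0.72, SE 0.11). Cdkn1a, which encodes p21, had 0.57 (SE 0.28) and Cdkn2d, which encodes p19Ink4d, -0.45 (SE 0.22).

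MuvB is the core to which p107 or p130 with E2F4 or E2F5 adds to form the repressive DREAM complex, and to which B-Myb (Mybl2) and FoxM1 bind later in the cycle. Lin54, the MuvB subunit that binds the CHR, was at 7.94 and 7.85 on the control arrays against 7.36 and 7.18 with BMP3 (difference -0.62, SE 0.09). It was the single gene of 7 with an unadjusted p under 0.05, where 4.52% of all genes were lower at that p, and 0 passed the adjusted threshold. Lin9, another subunit, was dim and lower (-0.50, SE 0.20), and Lin52 was dim with overlapping groups (0.23, SE 0.21). Rbbp4, a histone-binding subunit, had 0.18 (SE 0.07) at its brightest probe set and -0.27, -0.22 and -0.996 at the others, so its direction is not settled. Mybl2 and Foxm1 were below the median of every array at all of their probe sets.

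Chromatin partners showed single differences in both directions. Of 10 measured corepressors that pocket proteins recruit, 6 were higher and 4 lower; their median was 0.07 and became -0.04 without BMP3 replicate 1. The remodelling ATPase gene Smarca4 (0.22, SE 0.05) and the scaffold gene Sin3b (0.20, SE 0.06) were higher at an unadjusted p under 0.05, and Arid4a, an Rb-binding protein gene, had -0.83 (SE 0.32) and was lower at all 3 of its probe sets. Rbbp7, a histone-binding protein gene, had 0.09 (SE 0.03). Of 11 measured partners of E2F6 in the polycomb complex PRC1.6, 7 were higher and 4 lower. Mga, the DNA-binding scaffold of that complex, was at 9.74 and 9.86 on the control arrays against 9.21 and 9.31 with BMP3 (-0.54, SE 0.07). Its second probe set, which was dim, had 0.14. Wdr5, a WD-repeat subunit, had 0.57 (SE 0.10), Max, the partner of Mga, 0.33 (SE 0.17) and the deacetylase gene Hdac1 0.16 (SE 0.07). In each of these lists 0 genes passed limma's adjusted threshold.

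The known target genes were listed by the part of the cycle they serve. Of 35 measured G1/S targets of E2F, which encode the replication machinery, 22 were higher and 13 lower, with a median difference of 0.07. At an unadjusted p under 0.05, 2 were higher (Mcm5 and Mcm2) and 2 lower (Rfc3 and Rfc4), near the shares of all genes, 5.28% and 4.52%. Mcm5 and Mcm2, subunits of the replicative helicase, had 0.61 (SE 0.14) and 0.51 (SE 0.12). Rfc3 and Rfc4, subunits of the clamp loader, had -0.73 (SE 0.23) and -0.30 (SE 0.09). The second probe sets of Mcm2, which was dim, Rfc3 and Rfc4 had 0.06, -0.18 and -0.12, and the groups overlapped at each. The list median was -0.02 without BMP3 replicate 1. Of 27 measured late cell cycle genes, which DREAM represses and B-Myb and FoxM1 drive, all 27 were higher on average, with a median of 0.89. At an unadjusted p under 0.05, 14 were higher, and 21 had BMP3 arrays wholly above control, where 5.28% and 16.7% of all genes did. With adjustment over all probe sets 0 genes of either list passed, and whether the lists differ was not tested.

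The late genes named by rule were Kif23, a kinesin of cytokinesis (1.58, SE 0.10), Ube2c, the ubiquitin-conjugating enzyme that works with the anaphase-promoting complex (1.29, SE 0.12), Cks2, which binds cyclin-dependent kinases (0.98, SE 0.03), and Tpx2, a spindle assembly factor (0.87, SE 0.08). These values are from the brightest probe set of each gene. Of the other Kif23 probe sets, 1 was dim and had 0.01, and 1 had group means below the array medians. The second of Cks2 had 0.81. The other Tpx2 probe sets had group means below the array medians. BMP3 replicate 1 was above BMP3 replicate 2 for 24 of the 27 late genes, so the list median was 0.56 without replicate 1 and 1.21 without replicate 2. The list level, the median of the genes' values after each gene's mean was subtracted, was -0.40 and -0.52 on the control arrays against 0.76 and 0.17 with BMP3. The gap varied among the late genes. BMP3 replicates 1 and 2 were at 10.83 and 10.55 for Ube2c and at 11.05 and 11.06 for Cks2. Both genes were named by smallest p, which favours a small gap. It was wider elsewhere, at 8.53 and 7.35 for Kif20a and at 6.75 and 5.18 for Prc1. For Prc1, BMP3 replicate 2 lay below both control arrays, which were at 5.36 and 5.40.

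**Figure D4:**
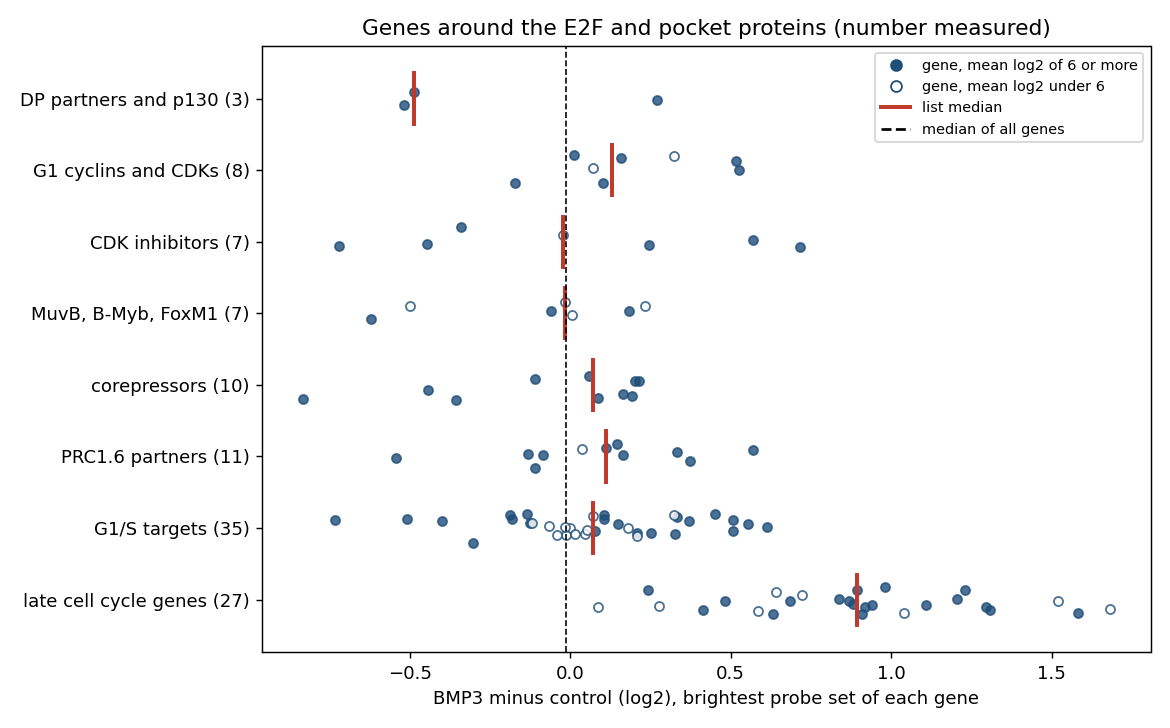
BMP3 minus control (log2) for each measured gene of 8 lists around the E2F and pocket proteins, with list medians in red and the median of all genes dashed. The 27 late cell cycle genes lie above 0 with a median of 0.89, while the 35 G1/S targets lie on both sides with a median of 0.07.

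The promoter words of the E2F genes can be set beside those of the 2 target lists. The short E2F word was in a window of 22 of 31 G1/S targets (71.0%), 4 of 23 late genes (17.4%) and 10.9% of all genes with a window. The CHR word was in 3 of 31 G1/S targets (9.68%), 17 of 23 late genes (73.9%) and 20.2% of all genes. The lists hold known targets of E2F and of MuvB complexes, which act through these words. Their contrast was thus largely set by the choice of lists and is a description. A CCAAT word, searched on both strands, was in 64.5%, 95.7% and 41.1% in the same order. The E2f8 and E2f3 windows held both the short E2F word and the CHR word, whereas those of E2f7 and Rbl1 held the short E2F word and no CHR word.

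**Figure D5:**
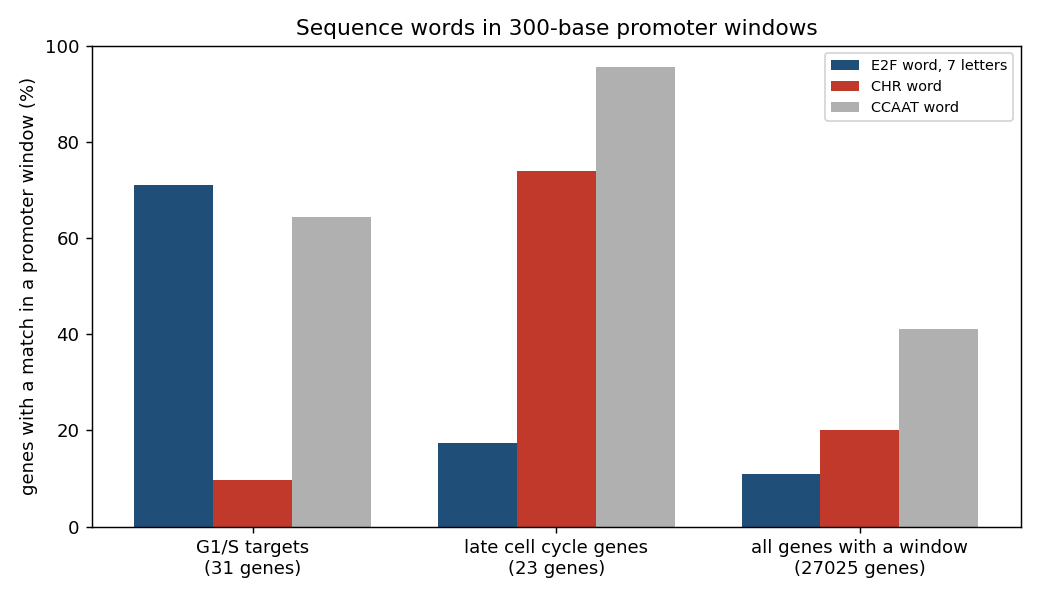
Percent of genes with at least 1 match of the short E2F word, the CHR word or the CCAAT word in a promoter window, for 31 G1/S targets, 23 late cell cycle genes and all 27025 genes with a window. The E2F word is the more frequent of the first 2 in G1/S targets (71.0% against 9.68%) and the CHR word in late genes (73.9% against 17.4%).

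The genes most like E2f8 across the 4 arrays were found by the Euclidean distance between centred log2 profiles, among 9179 other genes averaging a log2 value of 6 or more. The nearest were Ube2c (distance 0.18), Serpinb9b (0.20), L1cam (0.20), Pttg1 (0.23) and Ubtd1 (0.24). Pttg1, which encodes securin, was at 9.78 and 9.70 on the control arrays against 11.31 and 10.92 with BMP3. A distance over 4 arrays mostly finds genes with the same difference and small spread, and is given as a description.

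The arrays had median log2 values of 3.31 to 3.40, and 37.7% to 38.6% of probe sets reached 6. Markers of the labelled mesenchymal cells averaged 6 or more for 9 of 10 genes, while Nt5e was below the median of every array. Of endothelial markers all 7 measured were below it, and of the blood and epithelial markers only Cd14 (8.08) and Epcam (9.51) averaged 6 or more. Summed over each list, the log2 values ran from 122.1 to 123.2 in control and from 122.5 to 124.1 in BMP3 arrays for mesenchymal markers. They ran from 22.9 to 24.0 and from 23.6 to 24.5 for blood, from 13.4 to 13.6 and from 13.3 to 13.6 for endothelial, and from 28.7 to 28.8 and from 28.6 to 28.8 for epithelial markers. Poly-A spike-in controls, which are not cell transcripts, were lower in BMP3 arrays. Control and BMP3 means were 9.92 and 8.89 for Dap and 7.03 and 5.99 for Phe. The control arrays also differed from each other. Phe was at 7.62 and 6.45 on the control arrays against 5.99 and 6.00 with BMP3. Lys was at 7.05 and 6.17 against 5.71 and 6.10. For Gapdh the 3′ probe set minus the 5′ one gave -0.55 and -0.56 (log2) on the control arrays against -0.09 and -0.44 with BMP3. For beta-actin it gave 0.48 and 0.39 against 0.73 and 0.38, and the groups overlapped. Their part in the values above was not tested.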

How the data were processed

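The authors deposited 1 log2 value per probe set and array; that the scale is log2 was inferred from the values, and another log base would change every fold. The submitters' processing notes name Partek; how background, normalization and probe summary were handled is not given in the sources used. Of 45101 rows, 64 array controls were left out and no probe set was filtered. Symbols came from the platform annotation, checked by Entrez identifier for 34741 probe sets (0 changed), and 932 probe sets with several symbols named no gene. Each listed gene is its brightest probe set over the 4 arrays. List counts and medians take in genes below the array medians, for which no single difference is read.

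Groups and replicate numbers came from the sample titles. Differences came from lmFit and eBayes of limma 3.58.1 under R 4.3.3 (1.18 prior degrees of freedom, two-sided p, Benjamini-Hochberg over the whole table), and the fit was tested on simulated data. The 10 genes, 8 pathway lists and 4 marker lists were chosen with earlier results of these data known, and the promoter words after the windows were seen. Genes named were all members, up to 4 per pathway list by smallest unadjusted p, 9 preset partners and regulators, and the 5 nearest to E2f8. Plk1, Aurka, Kif20a and Prc1 were named outside this rule, to give limits of the late list. Alternatives were a replicate block, each array left out, 3 normalizations, a filter on dim probe sets, a trended prior, an offset of 16, the mean of all probe sets and a 2-fold threshold.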

Additional observations from a re-analysis of the deposited data

How the results depend on the processing

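The labels do not say that replicate numbers mark a shared day or batch, and 2 pairs cannot settle it. Deviations from the group means of same-numbered arrays correlated across the 45037 probe sets (r = 0.451, probe sets not being independent). With the replicate number as a block, probe sets past an unadjusted p under 0.05 and 1.5-fold numbered 683 higher and 1481 lower, against 364 and 901 without it. They were 82 and 344 at 2-fold, and 329 to 870 higher and 742 to 1407 lower with 1 array left out. Such fits have 1 residual degree of freedom. Under all 11 alternatives 0 probe sets passed the adjusted threshold. The E2f8 difference was 1.53 under quantile normalization, 1.07 with the offset of 16, as the offset shrinks low values, and 0.69 as the mean of both E2f8 probe sets, 1 of them below the array medians. It has no value among probe sets averaging 6 or more, and neither has E2f7. The E2f5 difference was -0.06 as the mean of all its probe sets, which disagreed in direction, against -0.43 at the brightest. The late gene median ran from 0.56 to 1.21 with 1 array left out, and was 0.64 as the mean of all probe sets of a gene. The G1/S median ran from -0.017 to 0.0703 with 1 array left out, and was 0.13 under quantile normalization, 0.13 over probe sets averaging 6 or more and 0.018 as the mean of all probe sets of a gene; the cause was not tested. The MuvB median of -0.02 was the value of Mybl2, which was below the median of every array, so no direction is read from it. This median turned to 0.02 under median centring, and normalization moved the median of all probe sets by under 0.05.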
